A study of Mus musculus with 16 samples.

Results

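The colorectum of mice that drank a high concentration of N-glycolylneuraminic acid (Neu5Gc) was compared with that of mice that drank a low one, across all expressed genes. Its members were chosen by the tissue given in the sample labels, which are 10 of the 16 libraries of the series. All mice were 8-week-old males of the APCMin/+ strain. They carry the Min allele of Apc, a truncating mutation, and develop intestinal adenomas. The low group, which the submitters call the control, drank water with 0.0127 mg/ml Neu5Gc for 14 days and has 4 libraries. The high group, the treatment, drank 0.2535 mg/ml for the same 14 days and has 6 libraries. Both groups received Neu5Gc and both carried the Min allele, so neither untreated mice nor mice with intact Apc are part of the comparison. The design text of the series states 6 control and 4 treatment mice instead. Groups follow the sample labels here, and if the group names were exchanged every direction would turn. The labels give neither the segment of the colorectum that was taken nor its adenoma content. The libraries were made from whole tissue, in which fewer cells of a type and less RNA per cell cannot be told apart.

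Neu5Gc is a sialic acid, one of the acidic sugars that cap the glycan chains of mucins and cell surfaces. Mouse cells activate the related Neu5Ac with the synthetase encoded by Cmas, convert the activated form to that of Neu5Gc with the hydroxylase encoded by Cmah, and attach either acid with sialyltransferases. In the colon many of these chains are O-glycans of mucins, which goblet cells and colonocytes build up stepwise from a first N-acetylgalactosamine. By its title the series asks whether Neu5Gc intake changes genes linked to colorectal cancer.

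Library sizes were alike in both groups, and 2 low libraries held RNA of other organs. Total estimated counts ran from 48273159 to 73913571 in the low and from 46093154 to 70673315 in the high libraries. All levels below are CPM, the counts of a gene in each 1e+06 counts of its library, scaled with TMM factors. All 8 defining markers of colorectal epithelium were detected, and their summed level was 13373 to 21617 CPM in the low and 5309.6 to 9569 CPM in the high libraries. Muc2 and Car1, which both fell, are members of that list. Low library 3 held 2821 CPM over 7 defining genes of pancreatic acinar cells, against 0.461 to 20.3 CPM in the other 9 libraries. Low library 4 held 10462 CPM over 7 kidney tubule genes, against 1.98 to 43.6 CPM elsewhere. It also held 1039 CPM over 5 hepatocyte genes, against 33.9 to 80.4 CPM elsewhere. High library 4 held 314 CPM over 3 Paneth cell genes, against at most 13.5 CPM elsewhere. High library 5 held 98.4 CPM over 5 prostate and seminal vesicle genes, against at most 0.846 CPM elsewhere. None of the defining markers was at 0 in all libraries. Genes encoded in the mitochondrion took 12.9% of the counts of low library 3 and 2.79% to 6.49% of those of the other libraries. Because low libraries 3 and 4 stand apart, the counts of the gene lists described in detail are also given without them, where the comparison rests on 2 low and 6 high libraries. For single genes the adjusted p or log2 fold change without them is printed where the call ended or was gained, or where the log2 fold change of a called gene moved by over 1.5 times.

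**Figure D1:**
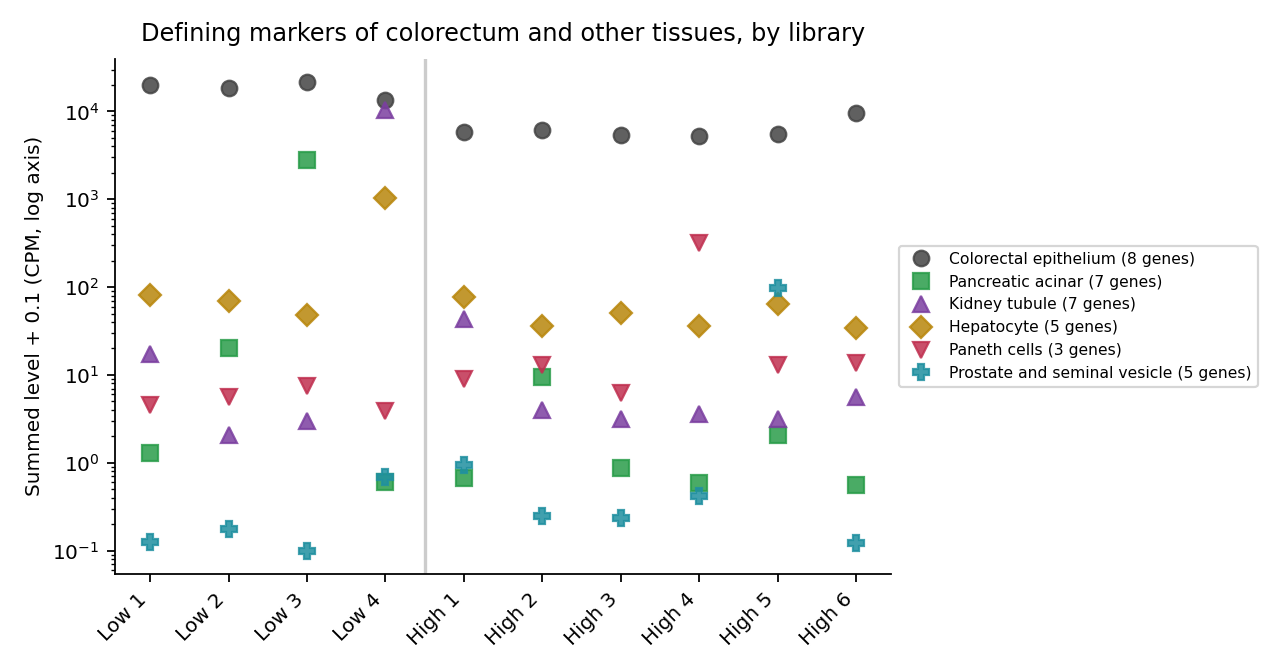
Summed levels (CPM plus 0.1, log axis) of defining marker genes in each of the 4 low and 6 high colorectum libraries. Pancreatic acinar genes stand out in low library 3 and kidney tubule and hepatocyte genes in low library 4, while markers of colorectal epithelium are high in all 10 libraries.

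Gene expression differed widely between the groups. By edgeR's quasi-likelihood test with Benjamini-Hochberg adjustment, 2784 of 17961 genes were called at an adjusted p below 0.05, which is 15.5% of those tested. Of these, 1309 were higher with high Neu5Gc (7.29%) and 1475 were lower (8.21%). These percentages are the background against which the gene lists are read. Genes called higher held a mean 10.4% of all counts in the low and 18.2% in the high libraries. Genes called lower held 10.3% and 4.35%, and the direction of both shares is fixed by how these genes were chosen. The median log2 fold change over all tested genes was -0.01. All 6 high libraries lay above all 4 low libraries for 1364 genes (7.59%) and below them for 1154 (6.43%).

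Low libraries 3 and 4 touched the falls more than the rises at large fold changes. Without them 2107 of 18465 genes were called (11.4%), 930 higher (5.04%) and 1177 lower (6.37%). Of the genes called in all 10 libraries, 648 of the 1309 higher ones and 914 of the 1475 lower ones were called again in the same direction. Genes called with a fold change of at least 16 numbered 34 higher and 101 lower. Of these, 29 of the higher and 36 of the lower genes were called again without both libraries. Low library 4 held the highest value of 75 of the 101 large falls, low library 3 of 12 and low library 2 of 13. The sign turned without both libraries for 8 of the 2784 called genes, all of them called lower in the comparison of all libraries. Of the low libraries, low library 3 had the largest share of called genes within the range of the high libraries, 9.4% of the genes called higher and 14.9% of those called lower. For the other low libraries these shares were 3.97% to 6.57% and 7.93% to 9.08%. Leaving out low library 3 alone raised the number of called genes to 3654, while leaving out low library 4 alone gave 2196.

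**Figure D2:**
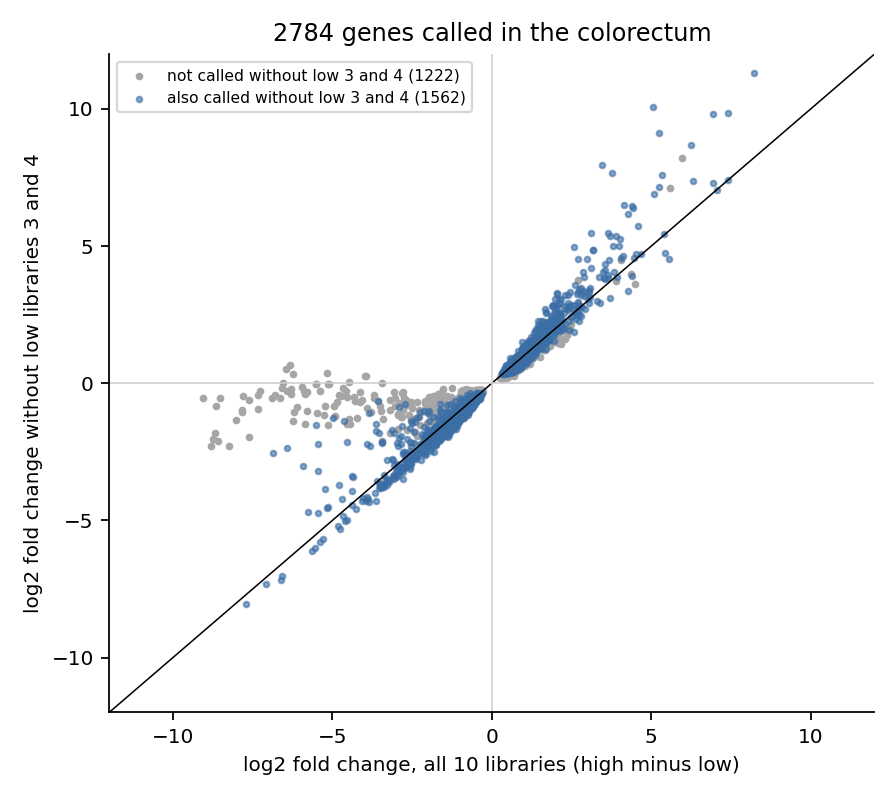
Log2 fold changes (high minus low) of the 2784 genes called in the colorectum, from all 10 libraries on the horizontal axis and without low libraries 3 and 4 on the vertical axis, with a line of equal values. The 1562 genes in blue were called again, and of the 1222 in grey a group with large falls lies near 0 once both libraries are left out.

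A gene is called stable below if it passed in all 10 libraries, in each of the 10 fits that left out 1 library, and without low libraries 3 and 4, each time in the same direction. There were 1147 stable genes, 6.39% of those tested, with 508 rises (2.83%) and 639 falls (3.56%). The smallest p of all belonged to Evx2 (ENSMUSG00000001815), a homeobox gene beside the HOXD cluster that was named after its values were seen. It was at 0.0379, 0.0194, 0.0596 and 0.0467 CPM in low libraries 1 to 4 and 3.34 to 6.59 CPM in the high ones, median 5.42 (adjusted p = 6.03e-06), too near 0 in the low libraries for a fold.

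Stable rises with the smallest p and a mean of at least 5 CPM included Trpv3, Unc119 and Slc15a1. Trpv3 (ENSMUSG00000043029), a calcium-permeable channel best known as a warmth sensor of keratinocytes, was at 2.06, 1.94, 3.58 and 1.82 CPM in low libraries 1 to 4 and 40.6 to 71.1 CPM in the high ones, median 54 (adjusted p = 1.14e-05, log2 fold change 4.53, SE 0.27). Slc15a1 (ENSMUSG00000025557), the peptide transporter of the apical membrane, was at 4.25, 5.56, 8.72 and 5.08 CPM in low libraries 1 to 4 and 51.1 to 145 CPM in the high ones, median 76.5 (adjusted p = 0.00012, log2 fold change 3.83, SE 0.33). Slc6a4 (ENSMUSG00000020838), the serotonin transporter, was at 7.2, 7.34, 7.63 and 8.84 CPM in low libraries 1 to 4 and 20.8 to 38 CPM in the high ones, median 31.2 (adjusted p = 0.000113, log2 fold change 2.0, SE 0.17). For these 3 genes every high library was above every low library, with low library 3 the highest low value of Trpv3. Wfdc2 (ENSMUSG00000017723), a secreted protein of mucosal surfaces, was at 73.1, 64.9, 62.9 and 79.2 CPM in low libraries 1 to 4 and 211 to 399.6 CPM in the high ones, median 323 (adjusted p = 7.23e-05, log2 fold change 2.21, SE 0.18). Sycn (ENSMUSG00000084174), which encodes the granule protein syncollin, was at 115, 96.3, 55 and 109.5 CPM in low libraries 1 to 4 and 457 to 704 CPM in the high ones, median 624 (adjusted p = 7.55e-05, log2 fold change 2.71, SE 0.22). Syncollin is best known from pancreatic acinar cells. Low library 3, which held the most acinar transcripts, had the lowest Sycn value. The 7 defining acinar genes summed to at most 9.38 CPM in any high library, and the part of acinar RNA in the Sycn result was not tested. Unc119 (ENSMUSG00000002058), a chaperone that carries lipid-modified proteins, was at 13.2, 13.1, 13 and 11.6 CPM in low libraries 1 to 4 and 49.99 to 70.7 CPM in the high ones, median 53.3 (adjusted p = 1.16e-05, log2 fold change 2.17, SE 0.13). Sh3d21 (log2 fold change 1.78, adjusted p = 2.67e-05), the Rab27 effector gene Sytl1 (log2 fold change 1.34, adjusted p = 0.00012), the kinase gene Mapkapk3 (log2 fold change 0.98, adjusted p = 0.000125), Mettl7a3 (log2 fold change 5.41, adjusted p = 0.000125) and the slow-muscle troponin gene Tnni1 (log2 fold change 2.67, adjusted p = 0.000125) rose as well.

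Stable falls with the smallest p and a mean of at least 5 CPM included Abca12, Slc8a1 and Mgll, along with the glycan enzyme genes Gcnt3, Gcnt4 and A4gnt described below. Abca12 (ENSMUSG00000050296), a lipid transporter, was at 28.8, 32.6, 15.8 and 24.1 CPM in low libraries 1 to 4 and 0.999 to 1.84 CPM in the high ones, median 1.29 (adjusted p = 7.59e-06, log2 fold change -4.27, SE 0.23). Slc8a1 (ENSMUSG00000054640), the sodium-calcium exchanger, was at 98.8, 120.0, 92.7 and 115 CPM in low libraries 1 to 4 and 15 to 26.9 CPM in the high ones, median 23.2 (adjusted p = 2.94e-05, log2 fold change -2.26, SE 0.16). Mgll (ENSMUSG00000033174), the lipase that cleaves monoacylglycerols, was at 117, 122, 120.4 and 107 CPM in low libraries 1 to 4 and 30.1 to 46.5 CPM in the high ones, median 39.3 (adjusted p = 4.51e-05, log2 fold change -1.57, SE 0.12). In all 3 the high libraries lay below the lowest low library. Ptprn2 (ENSMUSG00000056553), a protein of hormone granules, was at 79.8, 84.1, 75.1 and 62.9 CPM in low libraries 1 to 4 and 17.8 to 26.9 CPM in the high ones, median 24.5 (adjusted p = 4.65e-05, log2 fold change -1.70, SE 0.13). Car8 (ENSMUSG00000041261), a protein of the carbonic anhydrase family without enzyme activity, was at 129, 150.0, 61.9 and 111 CPM in low libraries 1 to 4 and 5.27 to 12.6 CPM in the high ones, median 8.09 (adjusted p = 7.55e-05, log2 fold change -3.66, SE 0.29). The neurotrophin receptor gene Ntrk2 (log2 fold change -2.99, adjusted p = 4.51e-05), the glutamate receptor subunit gene Grin3a (log2 fold change -3.87, adjusted p = 0.000125), the Ras exchange factor gene Rasgrf2 (log2 fold change -2.0, adjusted p = 0.00012) and the deiminase gene Padi2 (log2 fold change -1.96, adjusted p = 0.000113) fell, and in none of them did the groups overlap.

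Stable genes with the largest change in mean level included Muc2 and Car1 among the falls and Ckmt1 and Prdx6 among the rises. Muc2 (ENSMUSG00000025515), the main gel-forming mucin of the intestine, was at 11724, 9517, 17096 and 6604 CPM in low libraries 1 to 4 and 1546 to 4973 CPM in the high ones, median 2341 (adjusted p = 0.00238, log2 fold change -2.09, SE 0.33). Car1 (ENSMUSG00000027556), a carbonic anhydrase abundant in colonocytes, was at 5468, 6078, 1674 and 4337 CPM in low libraries 1 to 4 and 237 to 692 CPM in the high ones, median 409 (adjusted p = 0.000559, log2 fold change -3.29, SE 0.40). Emp1 (ENSMUSG00000030208), an epithelial membrane protein, was at 864, 725, 594 and 544 CPM in low libraries 1 to 4 and 71.5 to 244 CPM in the high ones, median 113 (adjusted p = 0.000498, log2 fold change -2.42, SE 0.29). High library 6 held the highest high value of Muc2 and Emp1, and still lay below each low library in both. Prdx6 (ENSMUSG00000026701), an antioxidant peroxiredoxin, was at 421, 381, 393 and 323 CPM in low libraries 1 to 4 and 1220.0 to 2806 CPM in the high ones, median 1701 (adjusted p = 0.000217, log2 fold change 2.28, SE 0.23). Ckmt1 (ENSMUSG00000000308), the mitochondrial creatine kinase, was at 565, 611, 533 and 550.2 CPM in low libraries 1 to 4 and 1459.9 to 2585 CPM in the high ones, median 2107 (adjusted p = 0.000265, log2 fold change 1.85, SE 0.20). S100a6 (ENSMUSG00000001025), a calcium-binding protein, was at 672, 647, 294 and 549 CPM in low libraries 1 to 4 and 1008 to 1674 CPM in the high ones, median 1485 (adjusted p = 0.00545, log2 fold change 1.35, SE 0.25). All 6 high libraries exceeded all 4 low libraries for these rises. Further large falls were those of the disintegrin-like protease gene Adamdec1 (log2 fold change -1.95, adjusted p = 0.00279), of the surface glycoprotein gene Cd24a (log2 fold change -1.11, adjusted p = 0.00112) and of Ugdh (log2 fold change -1.27, adjusted p = 0.00495), which encodes the dehydrogenase that makes UDP-glucuronic acid.

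Gene lists differed in how many members were called and in which direction. More members fell than rose among O-glycan enzymes, anterior and middle HOX genes, drug-metabolising enzymes, tuft cell and enteroendocrine genes, and more rose than fell among posterior HOX genes and class II antigen presentation. Lists of ribosomal proteins, DNA replication and mitochondrially encoded genes had calls that were mostly or wholly gone without low libraries 3 and 4, where 2 low libraries remain. Their median log2 fold changes were 0.47, 0.44 and -0.97 in all libraries. Without both libraries these medians were 0.42, 0.24 and -0.21, so the ribosomal median changed little and the mitochondrial one most.

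**Figure D3:**
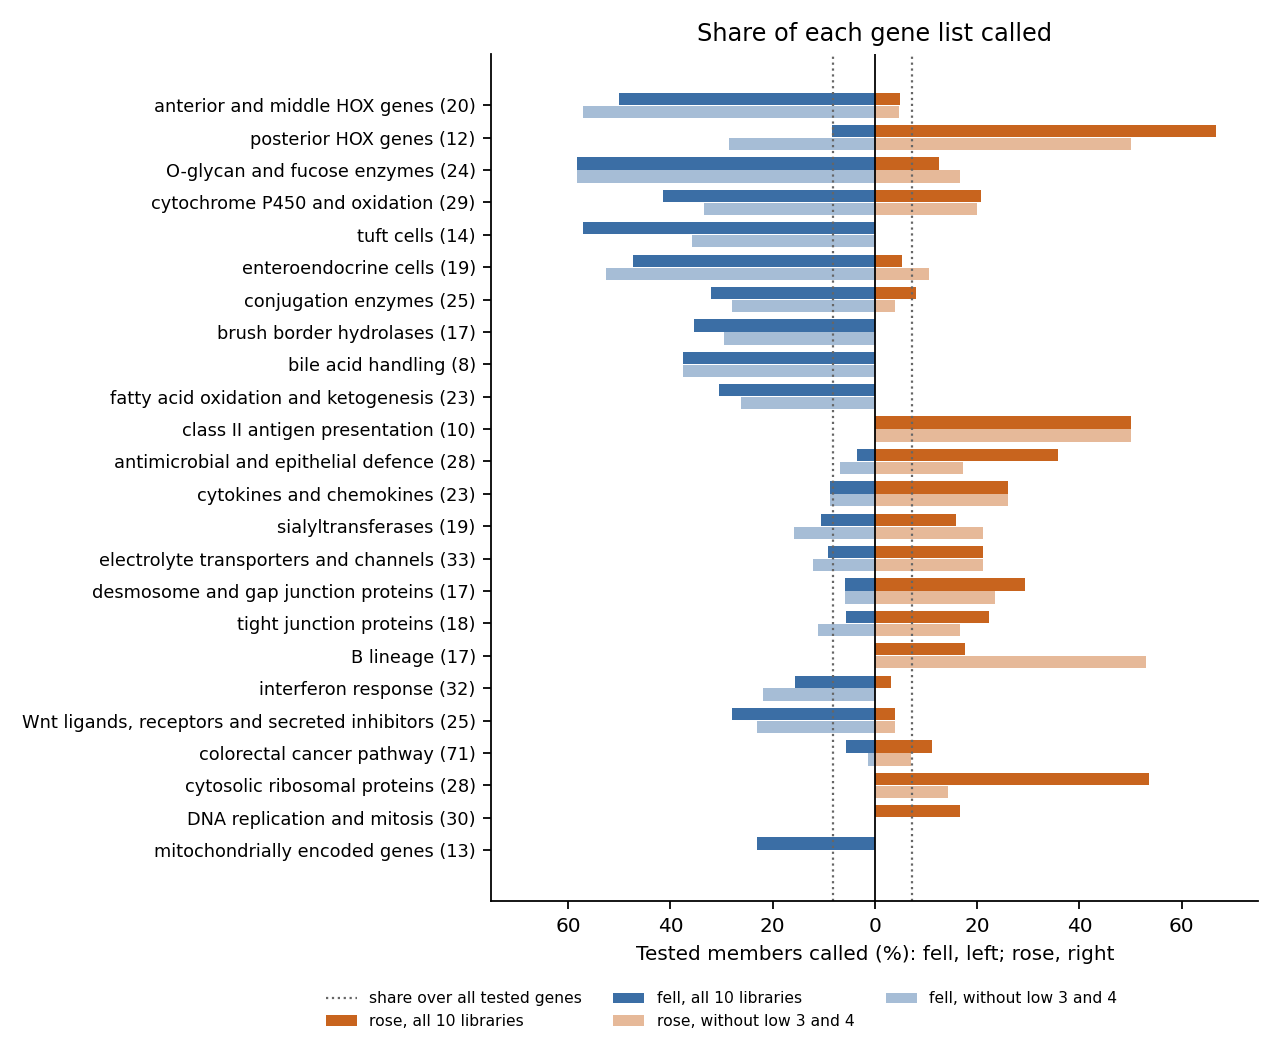
Percent of tested members (number in brackets) called higher, to the right, or lower, to the left, for 24 gene lists, in all 10 libraries (dark bars) and without low libraries 3 and 4 (pale bars); dotted lines give the share over all tested genes, 7.29% higher and 8.21% lower. The bars of O-glycan enzymes and HOX genes stay long without both libraries, and those of DNA replication and mitochondrially encoded genes vanish.

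Among enzymes that build mucin-type O-glycans most calls were falls. Of 24 enzymes of O-glycan synthesis and fucosylation, 14 fell and 3 rose, a called share of 70.8% against 15.5% of all genes. Their median log2 fold change was -0.60. Without low libraries 3 and 4, 14 fell and 4 rose, and 10 falls and 3 rises were stable. Synthesis starts with N-acetylgalactosaminyltransferases. Galnt12 (ENSMUSG00000039774), a member of that family expressed in the gut, was at 168, 157, 178 and 117 CPM in low libraries 1 to 4 and 71.1 to 91.3 CPM in the high ones, median 76.1 (adjusted p = 0.000625, log2 fold change -1.0, SE 0.13). The family members Galnt10 (log2 fold change -0.67, adjusted p = 0.00896), Galnt5 (log2 fold change -1.13, adjusted p = 0.0105) and Galnt3 (log2 fold change -0.68, adjusted p = 0.0145) were stable falls as well, Galnt5 with a log2 fold change of -0.75 without low library 3. Core 1 is made by the enzyme encoded by C1galt1 with the chaperone encoded by C1galt1c1. C1galt1c1 (ENSMUSG00000048970) was at 81.4, 79.2, 78.4 and 63.1 CPM in low libraries 1 to 4 and 33.2 to 47.5 CPM in the high ones, median 38.2 (adjusted p = 0.000762, log2 fold change -0.92, SE 0.12). C1galt1 (log2 fold change -0.83, adjusted p = 0.0274) fell too, but lost its call when any one of high libraries 1, 3, 4 and 5 was left out (largest adjusted p = 0.0636).

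The branching and extending enzymes showed the widest range. Gcnt3 (ENSMUSG00000032226), which makes core 2 and core 4 branches in mucin-secreting epithelium, was at 351, 363, 291 and 266 CPM in low libraries 1 to 4 and 36.9 to 61.5 CPM in the high ones, median 56.1 (adjusted p = 1.14e-05, log2 fold change -2.59, SE 0.16). Gcnt4 (ENSMUSG00000091387), another branching enzyme, was at 13.1, 18.6, 8.78 and 13.2 CPM in low libraries 1 to 4 and 2.02 to 3.33 CPM in the high ones, median 2.77 (adjusted p = 0.000125, log2 fold change -2.31, SE 0.21). B3gnt6 (ENSMUSG00000074004), the core 3 synthase of the colon, was at 125, 97.7, 104 and 73.5 CPM in low libraries 1 to 4 and 1.5 to 17.5 CPM in the high ones, median 7.46 (adjusted p = 0.0118, log2 fold change -3.49, SE 0.71). No high library reached the lowest low library in these genes, and the high libraries of B3gnt6 spread widely among themselves. B4galnt2 (ENSMUSG00000013418), which adds the terminal sugar of the Sda blood group antigen next to a sialic acid, was at 381, 441, 550.2 and 356 CPM in low libraries 1 to 4 and 86.1 to 183 CPM in the high ones, median 104 (adjusted p = 0.000387, log2 fold change -1.91, SE 0.22). A4gnt (ENSMUSG00000037953), which caps gland mucins with N-acetylglucosamine, was at 85.1, 93.7, 56.8 and 73.2 CPM in low libraries 1 to 4 and 4.97 to 14.7 CPM in the high ones, median 11.5 (adjusted p = 0.000125, log2 fold change -2.82, SE 0.25). B4galnt1 (log2 fold change -1.96, adjusted p = 0.00331), an enzyme of ganglioside rather than mucin synthesis that the list also holds, fell. The rises were of different enzymes. B3gnt7 (ENSMUSG00000079445), which extends chains of sulfated lactosamine, was at 36.8, 40.6, 326 and 58.9 CPM in low libraries 1 to 4 and 664 to 1138 CPM in the high ones, median 939 (adjusted p = 0.0157, log2 fold change 2.98, SE 0.66). B4galnt3 (ENSMUSG00000041372), which makes terminal LacdiNAc, was at 12.2, 16.2, 40.5 and 33 CPM in low libraries 1 to 4 and 77.3 to 130.2 CPM in the high ones, median 120.3 (adjusted p = 0.00259, log2 fold change 2.12, SE 0.33). Fut4 (ENSMUSG00000049307), a fucosyltransferase that makes Lewis X, was at 81.8, 86.3, 119.7 and 62 CPM in low libraries 1 to 4 and 137 to 212 CPM in the high ones, median 188 (adjusted p = 0.00391, log2 fold change 1.07, SE 0.19). Low library 3 was the highest low library for each of the 3 rises, and without low libraries 3 and 4 the log2 fold change of B3gnt7 was 4.53.

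**Figure D4:**
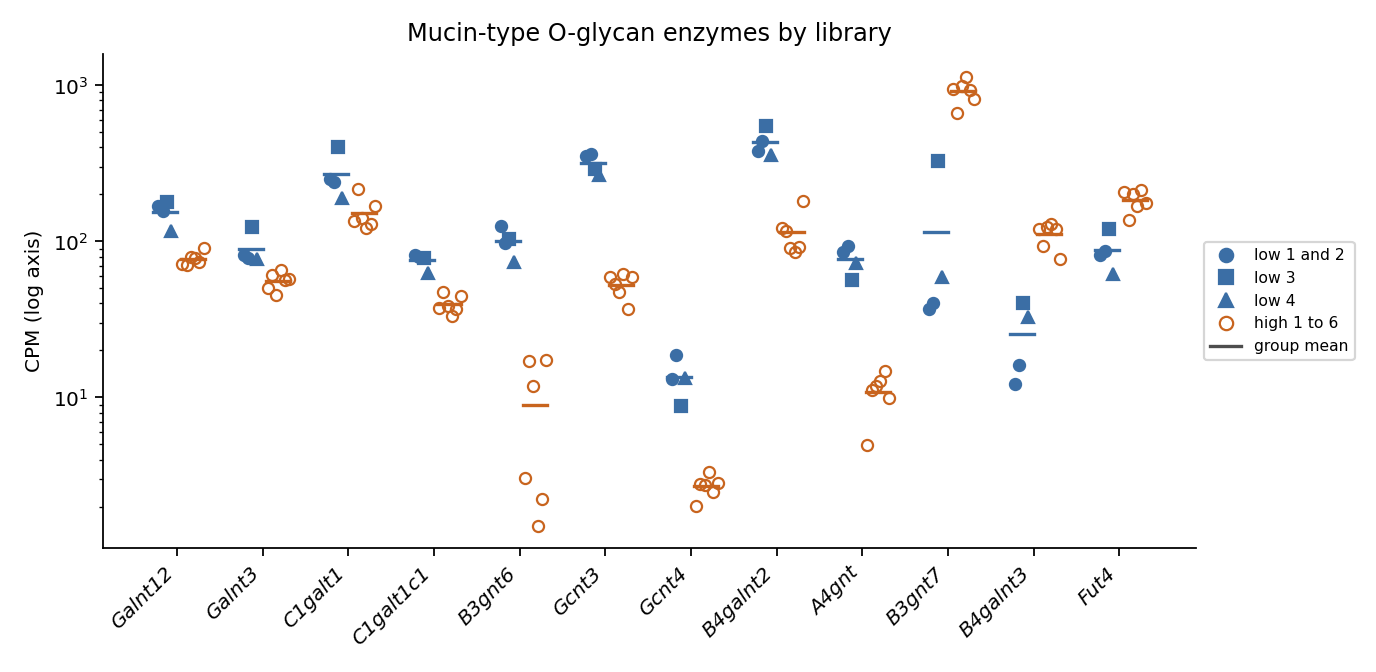
Levels (CPM, log axis) of 12 enzymes of O-glycan synthesis in each library, low libraries as filled blue symbols and high libraries as open orange circles, with bars at the group means. Apart from C1galt1, where low library 4 lies within the high range, the groups do not overlap: 8 further enzymes are lower and B3gnt7, B4galnt3 and Fut4 are higher with high Neu5Gc.

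Promoters of a falling and a rising glycan enzyme are shown because the list moved both ways. Sequences are from RefSeq for build GRCm38.p6 and cover 250 bases before to 50 after the annotated start.
B4galnt2, chr11:95914822-95915121, minus strand: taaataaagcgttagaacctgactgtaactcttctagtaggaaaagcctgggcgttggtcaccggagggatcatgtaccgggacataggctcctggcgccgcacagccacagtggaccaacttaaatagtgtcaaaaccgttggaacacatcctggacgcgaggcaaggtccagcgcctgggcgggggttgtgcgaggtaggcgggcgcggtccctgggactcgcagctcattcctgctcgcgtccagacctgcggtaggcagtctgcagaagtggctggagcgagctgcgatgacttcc
B3gnt7, chr1:86302971-86303270, plus strand: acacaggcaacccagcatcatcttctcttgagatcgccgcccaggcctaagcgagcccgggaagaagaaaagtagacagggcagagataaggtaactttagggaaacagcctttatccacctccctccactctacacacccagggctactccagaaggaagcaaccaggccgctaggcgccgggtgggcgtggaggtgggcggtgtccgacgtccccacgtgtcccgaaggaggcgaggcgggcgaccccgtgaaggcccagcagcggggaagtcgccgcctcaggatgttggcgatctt
Each window was searched on both strands for TTTATG (reverse CATAAA), a motif of the CDX homeobox factors, and for CAAAGT (reverse ACTTTG), the core of the motif of the nuclear receptor HNF4. Neither set of letters is in these 2 windows.

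Genes that act on sialic acid itself moved in both directions. Of 8 genes of sialic acid synthesis and activation, 1 fell and 1 rose (25%, against 15.5% of all genes). Cmah (ENSMUSG00000016756), the Neu5Gc-forming hydroxylase, was at 59.5, 62.1, 99.8 and 63.5 CPM in low libraries 1 to 4 and 10.1 to 34 CPM in the high ones, median 21.2 (adjusted p = 0.00285, log2 fold change -1.74, SE 0.28). Cmas (ENSMUSG00000030282), the activating synthetase, was at 242, 228, 247 and 176 CPM in low libraries 1 to 4 and 297 to 331 CPM in the high ones, median 315 (adjusted p = 0.0161, log2 fold change 0.49, SE 0.11). Cmah is the only gene of the list at a lower level in every high library, and low library 3 held its highest value. Nans (log2 fold change 0.55, adjusted p = 0.29), the synthase gene for Neu5Ac phosphate, did not pass in all libraries and passed without low library 3 (log2 fold change 1.18, adjusted p = 0.00148) and without low libraries 3 and 4 (adjusted p = 0.00369). Of 19 sialyltransferases, 3 rose and 2 fell (26.3%), each of them stable. St6galnac4 (ENSMUSG00000079442), which sialylates the core sugar of O-glycans, was at 17.4, 18.9, 51.3 and 18.3 CPM in low libraries 1 to 4 and 64.3 to 94.8 CPM in the high ones, median 74.5 (adjusted p = 0.00969, log2 fold change 1.51, SE 0.31). St3gal1 (ENSMUSG00000013846), which caps core 1, was at 56.8, 38.2, 39.8 and 31.2 CPM in low libraries 1 to 4 and 13.1 to 28.8 CPM in the high ones, median 14.9 (adjusted p = 0.00495, log2 fold change -1.29, SE 0.23). St3gal6 (ENSMUSG00000022747), which caps lactosamine chains, was at 87.7, 71.6, 152 and 64.2 CPM in low libraries 1 to 4 and 168 to 264 CPM in the high ones, median 199.8 (adjusted p = 0.0097, log2 fold change 1.14, SE 0.24). These enzymes thus differed in direction. The ganglioside enzymes St3gal5 (log2 fold change -1.38, adjusted p = 0.00478) and St8sia5 (log2 fold change 5.23, adjusted p = 0.0128) did so as well. Both had low levels, St3gal5 with a mean of 5.05 ± 1.85 to 1.94 ± 0.378 CPM and St8sia5 of 0.37 ± 0.602 to 13.5 ± 9.15 CPM (low to high). St8sia5 was near 0 in low libraries 1, 2 and 4, so its fold is uncertain, with a log2 fold change of 7.14 without low libraries 3 and 4. Among genes of sialic acid synthesis, 2 rose and 1 fell without low libraries 3 and 4. Among sialyltransferases, 4 rose and 3 fell without low libraries 3 and 4.

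Of 12 genes of sialic acid release and breakdown, 3 rose (25%, against 15.5% of all genes). Neu3 (ENSMUSG00000035239), the sialidase of the plasma membrane, was at 2.85, 2, 3.95 and 2.29 CPM in low libraries 1 to 4 and 8.66 to 16.4 CPM in the high ones, median 11.5 (adjusted p = 0.00043, log2 fold change 2.08, SE 0.25). Casd1 (ENSMUSG00000015189), which adds O-acetyl groups to sialic acids, was at 80.1, 61.3, 95 and 58.7 CPM in low libraries 1 to 4 and 101 to 138 CPM in the high ones, median 132 (adjusted p = 0.00664, log2 fold change 0.79, SE 0.15). The list holds Casd1 although its step is neither release nor breakdown. Nagk (log2 fold change 0.43, adjusted p = 0.0434), a kinase gene for N-acetylglucosamine, lost its call when any one of low libraries 1 and 2 or high libraries 1, 3, 4, 5 and 6 was left out (largest adjusted p = 0.0898) and without low libraries 3 and 4 (adjusted p = 0.0987). Of 10 sialic acid receptors, 1 rose and 1 fell (20%), near the share of all genes. Siglecf (ENSMUSG00000039013), a receptor of eosinophils and tuft cells in mice, was at 3.12, 3.76, 3.08 and 3.13 CPM in low libraries 1 to 4 and 0.745 to 1.63 CPM in the high ones, median 0.882 (adjusted p = 0.00201, log2 fold change -1.63, SE 0.25). Siglecg (log2 fold change 2.06, adjusted p = 0.0348), a receptor of B cells, rose, but lost its call when any one of low libraries 1, 2 and 4 or high libraries 1, 2 and 5 was left out (largest adjusted p = 0.0744), and was at 3.27 (log2 fold change) without low libraries 3 and 4. Among genes of sialic acid release, 3 rose and 0 fell without low libraries 3 and 4. Among sialic acid receptors, 3 rose and 1 fell without low libraries 3 and 4.

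Mucins differed among themselves. Of 7 mucins, 3 rose and 2 fell (71.4%), of which Muc2 was the stable fall and 2 membrane-bound mucins were the stable rises. Muc13 (ENSMUSG00000022824) was at 1104, 1152, 1331 and 931 CPM in low libraries 1 to 4 and 1712 to 2559 CPM in the high ones, median 2532 (adjusted p = 0.00269, log2 fold change 1.03, SE 0.17). Muc3 (ENSMUSG00000037390) was at 1537, 1722, 2144 and 1316 CPM in low libraries 1 to 4 and 2456 to 6040.1 CPM in the high ones, median 3585 (adjusted p = 0.0109, log2 fold change 1.20, SE 0.26). A second annotated gene, Muc3a (log2 fold change -0.92, adjusted p = 0.0453), went the opposite way but lost its call when any one of low libraries 1, 2 and 4 or high libraries 1, 2, 3, 4 and 5 was left out (largest adjusted p = 0.114) and without low libraries 3 and 4 (adjusted p = 0.0602). Reads of repeat-rich mucins could be split between such copies, so both are uncertain. Of 17 goblet cell secretory genes, 4 fell and 2 rose (35.3%, against 15.5% of all genes), with a median log2 fold change of -0.01. All high libraries lay above all low ones for 3 members and below them for 2. The stable falls were Spdef (ENSMUSG00000024215), a transcription factor of goblet cell maturation at 136, 171, 133 and 138 CPM in low libraries 1 to 4 and 47.6 to 77 CPM in the high ones, median 60.3 (adjusted p = 0.000427, log2 fold change -1.23, SE 0.14), and Kcnk6 (log2 fold change -0.89, adjusted p = 0.00897), a potassium channel. No rise of the list was stable, and Agr2 (log2 fold change -0.61, adjusted p = 0.0503), which folds Muc2, did not pass in all libraries and passed without low libraries 3 and 4 (adjusted p = 0.00888). Among mucins, 2 rose and 1 fell without low libraries 3 and 4. Among goblet cell secretory genes, 0 rose and 6 fell without low libraries 3 and 4.

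HOX genes, which keep a record of position along the body axis in gut tissue, split by paralogue number. Of 20 genes numbered 1 to 8, 10 fell and 1 rose. Of 12 numbered 9 to 13, 8 rose and 1 fell. Without low libraries 3 and 4 these counts were 12 falls and 1 rise, and 7 rises and 4 falls. Hoxb8 (ENSMUSG00000056648) was at 36.9, 39.2, 3.68 and 37.1 CPM in low libraries 1 to 4 and 0.474 to 0.864 CPM in the high ones, median 0.722 (adjusted p = 0.000322, log2 fold change -5.39, SE 0.55). Hoxb6 (ENSMUSG00000000690) was at 70.3, 91.7, 7.79 and 75.8 CPM in low libraries 1 to 4 and 2.06 to 3.15 CPM in the high ones, median 2.5 (adjusted p = 0.000657, log2 fold change -4.60, SE 0.54). Hoxb13 (ENSMUSG00000049604) was at 3.37, 6.32, 63.4 and 10.9 CPM in low libraries 1 to 4 and 303 to 607 CPM in the high ones, median 431 (adjusted p = 0.0102, log2 fold change 4.38, SE 0.86). Low library 3 lay nearest to the high group in all 3 genes, and without low libraries 3 and 4 their log2 fold changes were -5.80, -5.04 and 6.47. Hoxd13 (ENSMUSG00000001819) was at 0.0379, 0.174, 2.56 and 0.203 CPM in low libraries 1 to 4 and 52.6 to 109 CPM in the high ones, median 90.8 (adjusted p = 0.0031, log2 fold change 6.94, SE 1.05). The size of that fold is uncertain, since low libraries 1, 2 and 4 were near 0, and it was 9.81 (log2) without low libraries 3 and 4. Hoxd12 (ENSMUSG00000001823) was at 0, 0, 0.0199 and 0.0467 CPM in low libraries 1 to 4 and 2.9 to 8.06 CPM in the high ones, median 5.46 (adjusted p = 7.55e-05), too near 0 in the low libraries for a fold. Hoxa11 (ENSMUSG00000038210) was at 45, 34.8, 31.1 and 28.2 CPM in low libraries 1 to 4 and 72.4 to 99 CPM in the high ones, median 84 (adjusted p = 0.000429, log2 fold change 1.26, SE 0.15). In the HOXA cluster, genes numbered 1 to 5 and 7 did not pass, and Hoxa6 (log2 fold change 0.85, adjusted p = 0.0232) rose against the direction of its neighbours in other clusters, though its call was lost when any one of low libraries 2 and 4 was left out (largest adjusted p = 0.0645). Hoxb9 (log2 fold change -0.54, adjusted p = 0.0034) fell as the other HOXB genes from 3 to 8 did.

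Summed over 23 anterior and middle HOX genes, low libraries 1, 2 and 4 held 382 to 414 CPM and the high libraries 122 to 172 CPM. Low library 3, at 151 CPM, lay within the high range. Summed over 16 posterior HOX genes, the low libraries held 242 to 305 CPM and the high libraries 757 to 1074 CPM. The labels name no segment of the colorectum, so a difference in the segment sampled and the dose of Neu5Gc cannot be told apart with these libraries.

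**Figure D5:**
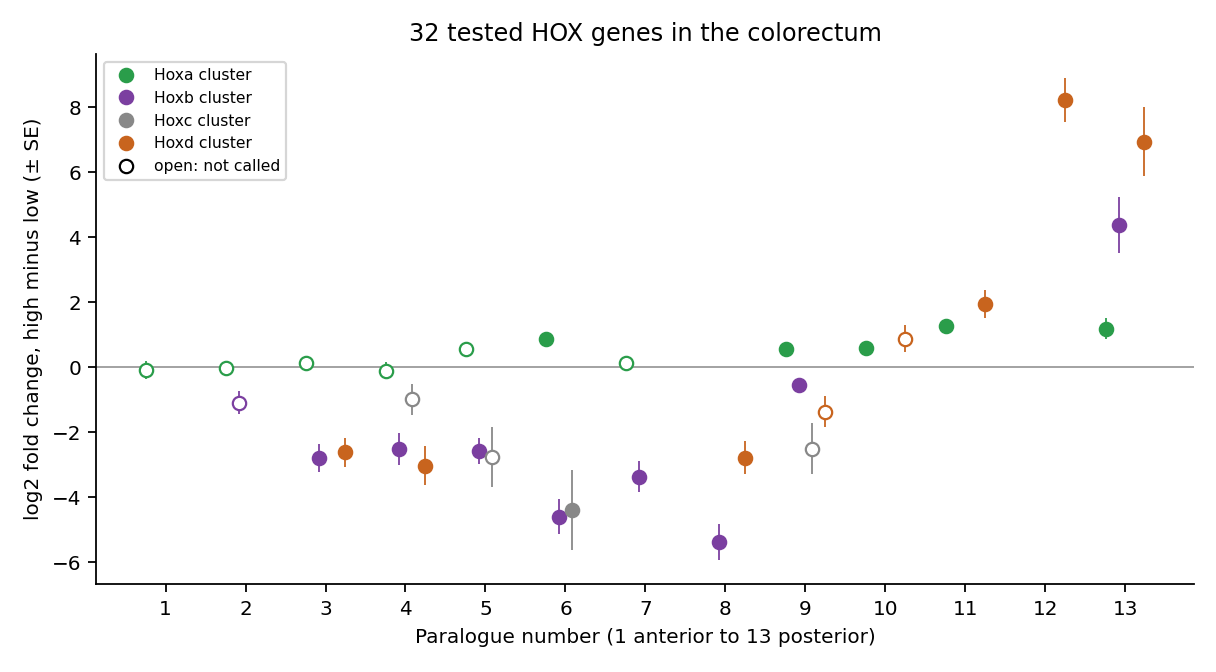
Log2 fold change (high minus low, with SE) of 32 tested HOX genes against their paralogue number, coloured by cluster, filled where called. Genes 3 to 8 of the HOXB and HOXD clusters lie below 0, genes 11 to 13 above it, and genes of the HOXA cluster between -0.11 (Hoxa4) and 1.26 (Hoxa11). The fitted value of Hoxd12, near 0 in the low libraries, depends on the prior count. Hoxd13 was near 0 in low libraries 1, 2 and 4, so its fitted value is uncertain too.

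Among 24 other transcription factors of the gut, 6 rose and 4 fell (41.7%, against 15.5% of all genes). Osr2 (ENSMUSG00000022330), a zinc finger factor of mesenchyme, was at 52.8, 97.8, 4.87 and 74.1 CPM in low libraries 1 to 4 and 0.31 to 0.921 CPM in the high ones, median 0.561 (adjusted p = 0.000639, log2 fold change -6.58, SE 0.74). Isx (ENSMUSG00000031621), an intestine-specific homeobox factor that represses vitamin A uptake, was at 69.8, 78.5, 35.9 and 63.8 CPM in low libraries 1 to 4 and 1.79 to 21.9 CPM in the high ones, median 3.78 (adjusted p = 0.0118, log2 fold change -3.23, SE 0.66). Foxa2 (ENSMUSG00000037025), a forkhead factor of endoderm, was at 22.8, 18.6, 23.5 and 13.7 CPM in low libraries 1 to 4 and 43.6 to 60.6 CPM in the high ones, median 55 (adjusted p = 0.000382, log2 fold change 1.45, SE 0.16). No library of one group entered the range of the other in these 3 genes. Cdx2 (ENSMUSG00000029646), a homeobox factor that sets intestinal identity, was at 252, 322, 183 and 232 CPM in low libraries 1 to 4 and 54.2 to 188 CPM in the high ones, median 97.8 (adjusted p = 0.0171, log2 fold change -1.25, SE 0.29), and lost its call when low library 2 was left out (largest adjusted p = 0.0525). Its paralogue Cdx1 (log2 fold change 0.50, adjusted p = 0.0331) rose, but lost its call when any one of low libraries 1, 2 and 4 or high libraries 1, 3, 5 and 6 was left out (largest adjusted p = 0.0789) and without low libraries 3 and 4 (adjusted p = 0.126). Klf4 (log2 fold change 0.75, adjusted p = 0.00693), a factor of differentiated epithelium, was a stable rise. Hnf4a (log2 fold change 0.37, adjusted p = 0.0808) did not pass. Among these transcription factors, 3 rose and 4 fell without low libraries 3 and 4.

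Genes of salt and water transport moved in both directions. Of 33 electrolyte transporters and channels, 7 rose and 3 fell (30.3%, against 15.5% of all genes), and 6 and 3 of them were stable. Ano1 (ENSMUSG00000031075), a calcium-activated chloride channel, was at 81.8, 76.6, 125 and 62.5 CPM in low libraries 1 to 4 and 187 to 249 CPM in the high ones, median 224 (adjusted p = 0.000939, log2 fold change 1.36, SE 0.18). Best2 (ENSMUSG00000052819), an anion channel of colonic goblet cells, was at 4.95, 7.63, 17.1 and 6.67 CPM in low libraries 1 to 4 and 40.2 to 96.4 CPM in the high ones, median 66 (adjusted p = 0.00103, log2 fold change 2.87, SE 0.38). Atp12a (ENSMUSG00000022229), the proton-potassium pump of the distal colon, was at 0.606, 1.71, 22.4 and 0.904 CPM in low libraries 1 to 4 and 169 to 1055 CPM in the high ones, median 397 (adjusted p = 0.0145, log2 fold change 6.23, SE 1.32). Every high library exceeded every low one, and low library 3 held the highest low value of Atp12a, whose log2 fold change was 8.70 without low libraries 3 and 4. Trpv6 (ENSMUSG00000029868), the epithelial calcium channel, was at 0.0757, 0.233, 1.59 and 0.499 CPM in low libraries 1 to 4 and 9.97 to 15.5 CPM in the high ones, median 13 (adjusted p = 0.00279, log2 fold change 4.43, SE 0.70). Kcne3 (ENSMUSG00000035165), a potassium channel subunit of chloride secretion, was at 109, 129, 157 and 106 CPM in low libraries 1 to 4 and 206 to 261 CPM in the high ones, median 229.9 (adjusted p = 0.00222, log2 fold change 0.88, SE 0.14). Slc12a2 (ENSMUSG00000024597), which loads chloride into secreting cells, was at 454, 485, 603 and 350.0 CPM in low libraries 1 to 4 and 249 to 355 CPM in the high ones, median 265 (adjusted p = 0.0107, log2 fold change -0.74, SE 0.16), and low library 4 lay within the high range. The basolateral anion exchanger gene Slc4a2 (log2 fold change -0.67, adjusted p = 0.0128) and the potassium channel gene Kcnma1 (log2 fold change -0.98, adjusted p = 0.0107) fell with it. Slc26a3 (log2 fold change 1.04, adjusted p = 0.106), the chloride-bicarbonate exchanger of the apical membrane, did not pass in all libraries and passed without low library 3 (adjusted p = 0.0452). Of 6 aquaporins, 1 rose and 3 fell (66.7%). Aqp8 (ENSMUSG00000030762), the water channel of surface colonocytes, was at 125, 81, 109 and 74.4 CPM in low libraries 1 to 4 and 213 to 714 CPM in the high ones, median 382 (adjusted p = 0.00236, log2 fold change 2.05, SE 0.32). Aqp1 (ENSMUSG00000004655), a channel of capillaries, was at 170.0, 175, 101 and 415 CPM in low libraries 1 to 4 and 64.8 to 87.6 CPM in the high ones, median 72.5 (adjusted p = 0.00824, log2 fold change -1.55, SE 0.31). Its highest value was in low library 4, which held kidney transcripts, and its log2 fold change was -1.03 without that library. Among electrolyte transporters, 7 rose and 4 fell without low libraries 3 and 4. Among aquaporins, 1 rose and 2 fell without low libraries 3 and 4.

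Genes of bile acid uptake and export that are best known from the ileum fell. Of 8 genes of bile acid handling, 3 fell (37.5%, against 15.5% of all genes) and each was stable. Slc10a2 (ENSMUSG00000023073), the apical bile acid transporter, was at 64.1, 85.2, 12.6 and 66.9 CPM in low libraries 1 to 4 and 1.71 to 3.77 CPM in the high ones, median 2.21 (adjusted p = 0.00027, log2 fold change -4.55, SE 0.45). Slc51a (ENSMUSG00000035699), which forms one of the 2 chains of the exporter that passes bile acids to the blood, was at 98.6, 164, 19.8 and 173 CPM in low libraries 1 to 4 and 0.197 to 1.86 CPM in the high ones, median 0.73 (adjusted p = 0.000427, log2 fold change -7.08, SE 0.73). Nr1h4 (ENSMUSG00000047638), the bile acid receptor FXR, was at 95.8, 94.2, 53 and 113 CPM in low libraries 1 to 4 and 39.3 to 57.5 CPM in the high ones, median 46.1 (adjusted p = 0.012, log2 fold change -0.90, SE 0.20). Low library 3 had the lowest low value of all 3, above every high library for Slc10a2 and Slc51a and within the high range for Nr1h4. The promoters of Slc10a2 and Slc51a are shown with matches to the searched motifs in capitals.
Slc10a2, chr8:5105238-5105537, minus strand: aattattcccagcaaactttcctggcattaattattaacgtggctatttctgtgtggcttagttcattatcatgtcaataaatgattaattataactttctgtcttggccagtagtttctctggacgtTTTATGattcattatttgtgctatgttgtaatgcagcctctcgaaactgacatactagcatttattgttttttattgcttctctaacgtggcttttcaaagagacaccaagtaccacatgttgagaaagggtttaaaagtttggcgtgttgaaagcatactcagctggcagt
Slc51a, chr16:32487830-32488129, minus strand: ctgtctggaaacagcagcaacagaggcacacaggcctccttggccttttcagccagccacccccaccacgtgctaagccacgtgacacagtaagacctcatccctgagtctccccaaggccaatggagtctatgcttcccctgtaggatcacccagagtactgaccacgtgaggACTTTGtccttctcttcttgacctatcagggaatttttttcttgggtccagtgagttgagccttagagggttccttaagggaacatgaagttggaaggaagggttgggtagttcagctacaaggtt
The window of Slc10a2 holds 1 CDX motif and that of Slc51a 1 HNF4 motif. The CDX motif was in 14.2% of 479 promoters of stable falls, in 12.3% of 375 promoters of stable rises and in 9.35% of 13074 promoters of tested genes. The HNF4 core was in 18%, 13.9% and 14.9% of them. Over all 27025 genes of the promoter table the shares were 13.6% and 16.1%. Such matches describe the letters and are not evidence of binding.

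Brush border hydrolases that were called all fell, and nutrient carriers moved in both directions. Of 17 brush border hydrolases, 6 fell (35.3%, against 15.5% of all genes), 4 of them stable, and 1 had a log2 fold change above 0. The median log2 fold change of the list was -1.01 in all libraries and -0.08 without low libraries 3 and 4, so the shift of the list as a whole depended on them. Sis (ENSMUSG00000027790), sucrase-isomaltase, was at 4.85, 12.9, 0.715 and 9.1 CPM in low libraries 1 to 4 and 0.0846 to 0.345 CPM in the high ones, median 0.169 (adjusted p = 0.000773, log2 fold change -5.29, SE 0.68). Alpi (ENSMUSG00000079440), intestinal alkaline phosphatase, was at 24.2, 28.9, 17 and 23.4 CPM in low libraries 1 to 4 and 0.501 to 3.85 CPM in the high ones, median 1.41 (adjusted p = 0.000754, log2 fold change -3.92, SE 0.49). Mep1a (ENSMUSG00000023914), a meprin protease subunit, was at 341, 376, 336 and 943 CPM in low libraries 1 to 4 and 109.7 to 203 CPM in the high ones, median 154 (adjusted p = 0.00672, log2 fold change -1.68, SE 0.32). These levels include low library 4, which held the highest Mep1a value and kidney transcripts, and without low libraries 3 and 4 the log2 fold change of Mep1a was -1.24. Enpep (log2 fold change -2.44, adjusted p = 0.00108), an aminopeptidase gene, was a stable fall. Among carriers, Slc13a1 (ENSMUSG00000029700), a sulfate carrier, was at 27.5, 36.5, 13.6 and 105 CPM in low libraries 1 to 4 and 0.358 to 3.38 CPM in the high ones, median 1.6 (adjusted p = 0.00271, log2 fold change -4.70, SE 0.70). Slc36a1 (ENSMUSG00000020261), a proton-coupled amino acid carrier, was at 44.7, 47.4, 61.7 and 75.5 CPM in low libraries 1 to 4 and 164 to 359 CPM in the high ones, median 199 (adjusted p = 0.000737, log2 fold change 1.95, SE 0.25). Slc5a6 (log2 fold change 0.95, adjusted p = 0.00709), a vitamin carrier gene, was a stable rise and Slc3a1 (log2 fold change -4.81, adjusted p = 0.00279), a subunit of the cystine carrier also abundant in kidney, a stable fall. Low library 4, with its kidney transcripts, held the highest value of both Slc13a1 and Slc3a1 (226 CPM). Without it their log2 fold changes were -3.90 and -3.64. Among brush border hydrolases, 0 rose and 5 fell without low libraries 3 and 4.

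Genes of lipid absorption and lipogenesis moved in both directions. Of 19 genes of lipid absorption, 3 rose and 4 fell (36.8%, against 15.5% of all genes). Abcg5 (ENSMUSG00000040505), which exports sterols, was at 2.5, 3.37, 3.28 and 4.24 CPM in low libraries 1 to 4 and 8.44 to 27.4 CPM in the high ones, median 13.6 (adjusted p = 0.00197, log2 fold change 2.20, SE 0.34). Npc1l1 (ENSMUSG00000020447), which takes up cholesterol, was at 0.821, 1.38, 0.536 and 1.17 CPM in low libraries 1 to 4 and 0.118 to 0.237 CPM in the high ones, median 0.143 (adjusted p = 0.000628, log2 fold change -2.62, SE 0.33). Plin2 (ENSMUSG00000028494), a coat protein of lipid droplets, was at 60.6, 67.6, 52.2 and 88.4 CPM in low libraries 1 to 4 and 114 to 172 CPM in the high ones, median 120.4 (adjusted p = 0.00471, log2 fold change 0.93, SE 0.17). The sterol exporter and the cholesterol uptake protein thus had opposite signs, both at low levels. Mogat2 (log2 fold change -2.97, adjusted p = 0.00615), an enzyme of triglyceride synthesis, fell, with a log2 fold change of -1.87 without low library 4. Of 13 genes of lipogenesis, 2 rose and 4 fell (46.2%). Scd2 (ENSMUSG00000025203), a fatty acid desaturase, was at 611, 634, 1082 and 484 CPM in low libraries 1 to 4 and 883 to 2299 CPM in the high ones, median 1987 (adjusted p = 0.0142, log2 fold change 1.33, SE 0.30), with low library 3 above high library 2. Acacb (ENSMUSG00000042010), the mitochondrial acetyl-CoA carboxylase, was at 39.2, 32.5, 40.2 and 33.4 CPM in low libraries 1 to 4 and 11.4 to 19.3 CPM in the high ones, median 13.1 (adjusted p = 0.000265, log2 fold change -1.38, SE 0.15). The nuclear receptor gene Pparg (log2 fold change -0.82, adjusted p = 0.00245) and the malic enzyme gene Me1 (log2 fold change -3.08, adjusted p = 0.00875) fell, Me1 with a log2 fold change of -1.77 without low library 4 and -1.81 without low libraries 3 and 4. For 20 cholesterol synthesis genes no member was called by edgeR, 3 had an unadjusted p below 0.05, and the DESeq2 Wald test called 1. Among genes of lipid absorption, 3 rose and 2 fell without low libraries 3 and 4. Among genes of lipogenesis, 2 rose and 3 fell without low libraries 3 and 4.

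Ketogenesis and fatty acid oxidation genes fell or did not pass. Of 23 members, 7 fell (30.4%), 6 without low libraries 3 and 4, and 3 were stable. Ppara (ENSMUSG00000022383), the nuclear receptor that drives fatty acid oxidation in other tissues, was at 17.6, 25.4, 11.5 and 39.8 CPM in low libraries 1 to 4 and 3.74 to 10.5 CPM in the high ones, median 6.72 (adjusted p = 0.006, log2 fold change -1.78, SE 0.33). Acaa1b (ENSMUSG00000010651), a thiolase of peroxisomes, was at 9.91, 17.3, 2.4 and 116 CPM in low libraries 1 to 4 and 0.466 to 1.65 CPM in the high ones, median 0.816 (adjusted p = 0.00771, log2 fold change -5.24, SE 0.96), and its log2 fold change was -3.38 without low library 4. No high library reached a low one in either gene. Of 22 nuclear-encoded respiratory chain genes none was called by edgeR, 0 had an unadjusted p below 0.05, and the DESeq2 Wald test called 0. Of 13 mitochondrially encoded genes 3 fell (23.1%, against 15.5% of all genes), mt-Nd5 (log2 fold change -1.56, adjusted p = 0.0361) among them. The call of mt-Nd5 was lost when any one of low library 3 or high libraries 1, 3, 4, 5 and 6 was left out (largest adjusted p = 0.078), and its adjusted p was 0.288 without low libraries 3 and 4. Its log2 fold change was -0.72 without low library 3, the library with the largest mitochondrial share.

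Enzymes that oxidise and conjugate foreign compounds were among the most changed lists. Of 29 genes of oxidation, 12 fell and 6 rose (62.1% called). Without low libraries 3 and 4, 10 fell and 6 rose. Cyp2c55 (ENSMUSG00000025002), an arachidonic acid hydroxylase of the colon, was at 1522, 1780.3, 802 and 1412 CPM in low libraries 1 to 4 and 67.2 to 279 CPM in the high ones, median 171 (adjusted p = 0.00107, log2 fold change -3.08, SE 0.41). Aldh1a1 (ENSMUSG00000053279), which makes retinoic acid, was at 207, 259, 121 and 172 CPM in low libraries 1 to 4 and 16.9 to 45.3 CPM in the high ones, median 30.2 (adjusted p = 0.000193, log2 fold change -2.61, SE 0.26). Adh1 (ENSMUSG00000074207), an alcohol and retinol dehydrogenase, was at 169, 161, 606 and 344 CPM in low libraries 1 to 4 and 963 to 1498 CPM in the high ones, median 1205 (adjusted p = 0.00673, log2 fold change 1.93, SE 0.37). The groups did not overlap for these 3 genes. Cyp2d12 (ENSMUSG00000096852) was at 3.33, 5.12, 3.42 and 12.7 CPM in low libraries 1 to 4 and 34.2 to 137 CPM in the high ones, median 47.7 (adjusted p = 0.00495, log2 fold change 3.35, SE 0.57). Cyp2c65 (log2 fold change -4.06, adjusted p = 0.000961) fell like Cyp2c55, and Cyp2d10 (log2 fold change 1.67, adjusted p = 0.000754) rose like Cyp2d12. Members of each of these families are near-identical, so the authors' counting could split reads between them. Of 25 conjugation enzymes, 8 fell, 6 of them stable, and 2 rose (40.0% called). Ugt2b5 (ENSMUSG00000054630), a glucuronosyltransferase, was at 39.7, 47.9, 25.3 and 46.6 CPM in low libraries 1 to 4 and 0.0896 to 3.29 CPM in the high ones, median 1.15 (adjusted p = 0.00275, log2 fold change -4.66, SE 0.70). Sult1d1 (ENSMUSG00000029273), a sulfotransferase, was at 232, 262, 241 and 289 CPM in low libraries 1 to 4 and 53.2 to 147 CPM in the high ones, median 96 (adjusted p = 0.00289, log2 fold change -1.41, SE 0.23). Genes of the Ugt1a locus share exons, and Ugt1a1 (log2 fold change -2.55, adjusted p = 0.00331) and Ugt1a6a (log2 fold change -1.75, adjusted p = 0.00644) are not independent of each other. Among conjugation enzymes, 1 rose and 7 fell without low libraries 3 and 4.

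Junction genes rose in part. Of 17 desmosome and gap junction genes, 5 rose and 1 fell (35.3%, against 15.5% of all genes). Pkp1 (ENSMUSG00000026413), a plakophilin of stratified epithelia, was at 23.4, 24.5, 30.1 and 22.6 CPM in low libraries 1 to 4 and 48.3 to 81.9 CPM in the high ones, median 62.8 (adjusted p = 0.000466, log2 fold change 1.35, SE 0.16). Gjb5 (ENSMUSG00000042357), a connexin, was at 0.316, 0.407, 1.15 and 0.281 CPM in low libraries 1 to 4 and 6.36 to 15.9 CPM in the high ones, median 7.47 (adjusted p = 0.000498, log2 fold change 4.04, SE 0.49). In Pkp1 and Gjb5 all high libraries lay above all low ones. Of 18 tight junction genes, 4 rose and 1 fell (27.8%). Cldn8 (ENSMUSG00000050520), a sealing claudin of the distal gut, was at 56.7, 37.4, 71.5 and 45.1 CPM in low libraries 1 to 4 and 82.3 to 139.6 CPM in the high ones, median 102 (adjusted p = 0.00703, log2 fold change 1.02, SE 0.20). Cldn15 (ENSMUSG00000001739), a pore-forming claudin, was at 233, 224, 185 and 189.7 CPM in low libraries 1 to 4 and 63.5 to 147 CPM in the high ones, median 97.5 (adjusted p = 0.00687, log2 fold change -1.03, SE 0.20). Marveld3 (log2 fold change 0.77, adjusted p = 0.00147), a further tight junction protein gene, was a stable rise. Tgm3 (ENSMUSG00000027401), a transglutaminase of squamous epithelium, was at 11.6, 17, 172 and 18 CPM in low libraries 1 to 4 and 629 to 1558 CPM in the high ones, median 1038 (adjusted p = 0.0125, log2 fold change 4.27, SE 0.88). Of 14 tested genes of squamous epithelium, 3 rose and 0 fell (21.4%, against 15.5% of all genes), and Tgm3 was the stable rise. The defining squamous markers Krt5, Krt14, Trp63 and Krt13 summed to 0.467 to 1.42 CPM in the low and 1.17 to 7.15 CPM in the high libraries, and the part of squamous epithelium in the Tgm3 result was not tested. Among squamous genes, 1 rose and 0 fell without low libraries 3 and 4. Among desmosome and gap junction genes, 4 rose and 1 fell without low libraries 3 and 4. Among tight junction genes, 3 rose and 2 fell without low libraries 3 and 4.

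Genes of epithelial defence mostly had higher levels with high Neu5Gc. Fewer rises were called without low libraries 3 and 4, where 2 low libraries remain. Of 28 members, 10 rose and 1 fell (39.3%), and without both libraries 5 rose and 2 fell. The median log2 fold change of the list was 1.18 in all libraries and 1.26 without both. Saa1 (ENSMUSG00000074115), an acute-phase protein made by colonocytes, was at 109.8, 201, 17.4 and 196 CPM in low libraries 1 to 4 and 495 to 2881 CPM in the high ones, median 1098 (adjusted p = 0.0164, log2 fold change 3.29, SE 0.73). Ly6g (ENSMUSG00000022582), known as a neutrophil surface protein, was at 0.694, 0.562, 3.73 and 0.561 CPM in low libraries 1 to 4 and 47.3 to 232 CPM in the high ones, median 94 (adjusted p = 0.00153, log2 fold change 6.32, SE 0.83). Pla2g10 (ENSMUSG00000022683), a secreted phospholipase, was at 67.3, 60.1, 61.4 and 46.6 CPM in low libraries 1 to 4 and 87.3 to 143 CPM in the high ones, median 112 (adjusted p = 0.00238, log2 fold change 0.94, SE 0.15). High library 1 stood out for Saa1, and the neutrophil genes S100a8 (log2 fold change 3.69, adjusted p = 0.173) and S100a9 (log2 fold change 3.60, adjusted p = 0.202) did not pass. Saa1 and Ly6g have near-identical relatives, so their counts are uncertain. Ly6d (log2 fold change 1.66, adjusted p = 0.0153) was a further stable rise. The stable fall was Reg3a (ENSMUSG00000079516), an antimicrobial lectin at 1.15, 1.07, 0.258 and 0.592 CPM in low libraries 1 to 4 and 0 to 0.0297 CPM in the high ones, median 0 (adjusted p = 0.000387), too near 0 in the high libraries for a fold.

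Several chemokines of lymphocytes and class II genes rose, and 3 B cell genes did. Of 23 cytokines and chemokines, 6 rose and 2 fell (34.8%, against 15.5% of all genes), in all libraries as without low libraries 3 and 4. Il18 (ENSMUSG00000039217), an epithelial cytokine, was at 28.2, 21.9, 52.9 and 15.7 CPM in low libraries 1 to 4 and 77.7 to 137 CPM in the high ones, median 102 (adjusted p = 0.00464, log2 fold change 1.78, SE 0.31). Ccl20 (ENSMUSG00000026166), which attracts lymphocytes, was at 1.1, 1.47, 0.715 and 0.53 CPM in low libraries 1 to 4 and 2.61 to 12.4 CPM in the high ones, median 5.39 (adjusted p = 0.00372, log2 fold change 2.74, SE 0.47). Ccl28 (ENSMUSG00000074715), which attracts antibody-secreting cells, was at 81.8, 70.9, 138 and 61.8 CPM in low libraries 1 to 4 and 134 to 193 CPM in the high ones, median 184 (adjusted p = 0.0121, log2 fold change 0.98, SE 0.21). The lymphoid chemokine genes Ccl19 (log2 fold change 2.0, adjusted p = 0.00577) and Ccl21a (log2 fold change 0.88, adjusted p = 0.0106) rose, and the myeloid chemokine genes Ccl6 (log2 fold change -0.73, adjusted p = 0.00314) and Ccl9 (log2 fold change -1.52, adjusted p = 0.00222) fell. Of 10 class II genes, 5 rose and all had a log2 fold change above 0. H2-Ob (ENSMUSG00000041538), a class II regulator of B cells, was at 3.41, 4.07, 9.26 and 4.22 CPM in low libraries 1 to 4 and 10.6 to 27.8 CPM in the high ones, median 16.9 (adjusted p = 0.00963, log2 fold change 1.77, SE 0.36). H2-DMb2 (ENSMUSG00000037548), which loads peptides, was at 2.68, 2.44, 5.84 and 2.46 CPM in low libraries 1 to 4 and 6.15 to 14.3 CPM in the high ones, median 10.9 (adjusted p = 0.00883, log2 fold change 1.67, SE 0.34). Of 17 B lineage genes, 3 rose (17.6%, against 15.5% of all genes), and 9 did without low libraries 3 and 4, where 2 low libraries remain. Their summed level overlapped between the groups, at 1107 to 3001 CPM in the low and 1523 to 5158 CPM in the high libraries. Cd79a (ENSMUSG00000003379), part of the B cell receptor, was at 3.98, 2.94, 8.94 and 3.27 CPM in low libraries 1 to 4 and 16.8 to 32.7 CPM in the high ones, median 22.3 (adjusted p = 0.00192, log2 fold change 2.33, SE 0.35). Ms4a1 (ENSMUSG00000024673), which encodes CD20, was at 0.821, 0.581, 18.2 and 0.982 CPM in low libraries 1 to 4 and 8.13 to 18.3 CPM in the high ones, median 9.95 (adjusted p = 0.415, log2 fold change 1.19, SE 0.95), and passed without low library 3 (log2 fold change 3.88, adjusted p = 0.000146) and without both low libraries 3 and 4 (adjusted p = 0.000402). Low library 3 held the highest low value of both genes, and for Ms4a1 it lay within the range of the high libraries. Among class II genes, 5 rose and 0 fell without low libraries 3 and 4.

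Interferon response genes were called little more often than all genes, and mostly fell where they were called. Of 32 members, 5 fell and 1 rose (18.8%, against 15.5% of all genes), and 7 fell without low libraries 3 and 4. Ifit1 (ENSMUSG00000034459), which binds foreign RNA, was at 89.7, 49.3, 61.4 and 26.1 CPM in low libraries 1 to 4 and 5.41 to 23.4 CPM in the high ones, median 9.83 (adjusted p = 0.0182, log2 fold change -2.15, SE 0.49). Rsad2 (ENSMUSG00000020641), an antiviral enzyme, was at 44.9, 17.3, 17 and 15.3 CPM in low libraries 1 to 4 and 4.66 to 10.8 CPM in the high ones, median 7.05 (adjusted p = 0.0113, log2 fold change -1.67, SE 0.35). The groups did not overlap in either gene, and low library 1 held the highest Rsad2 value.

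Among genes of the muscle and connective tissue layers the called share differed between lists. Of 18 smooth muscle genes, 3 fell (16.7%), and of 26 matrix genes 2 fell and 1 rose (11.5%), against 15.5% of all genes. Pln (ENSMUSG00000038583), the inhibitor of the calcium pump, was at 22.2, 20.9, 21.7 and 16.6 CPM in low libraries 1 to 4 and 4.46 to 8.33 CPM in the high ones, median 6.03 (adjusted p = 0.00027, log2 fold change -1.70, SE 0.18). Mylk (ENSMUSG00000022836), the myosin light chain kinase, was at 556, 623, 692 and 432 CPM in low libraries 1 to 4 and 232 to 347 CPM in the high ones, median 298 (adjusted p = 0.00254, log2 fold change -0.95, SE 0.15). Lox (log2 fold change -1.20, adjusted p = 0.0186), which cross-links collagen, was the stable fall of the matrix list. Of 6 genes of interstitial cells of Cajal, the pacemaker cells of the gut, 3 fell and 2 rose (83.3%), each of them stable. Kit (ENSMUSG00000005672), their growth factor receptor, was at 139.7, 139.8, 188 and 106 CPM in low libraries 1 to 4 and 46.2 to 79.9 CPM in the high ones, median 58.5 (adjusted p = 0.00105, log2 fold change -1.24, SE 0.17). Etv1 (ENSMUSG00000004151), their transcription factor, was at 15.5, 18.9, 13 and 20.9 CPM in low libraries 1 to 4 and 6.45 to 10.3 CPM in the high ones, median 8.15 (adjusted p = 0.00463, log2 fold change -1.04, SE 0.19). Prkcq (log2 fold change -0.85, adjusted p = 0.00358) fell too, while Ano1, given above, and Thbs4 (log2 fold change 2.09, adjusted p = 0.0169) rose. Kit and Ano1 are also expressed in epithelium. Among smooth muscle genes, 0 rose and 4 fell without low libraries 3 and 4. Among matrix genes, 0 rose and 4 fell without low libraries 3 and 4.

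Genes of the colorectal cancer pathway and feedback genes of Wnt signalling were called about as often as all genes. Of 71 pathway genes, 8 rose and 4 fell (16.9%), and 5 rose and 1 fell without low libraries 3 and 4. Apc (ENSMUSG00000005871), the gene mutated in these mice, was at 74.7, 100.4, 130.1 and 96.4 CPM in low libraries 1 to 4 and 53.2 to 104 CPM in the high ones, median 67.8, and did not pass (adjusted p = 0.088, log2 fold change -0.53, SE 0.20), but passed without high library 2 (adjusted p = 0.0187). Its counts do not separate the Min allele from the intact one. Tcf7l1 (ENSMUSG00000055799), a T cell factor that represses Wnt targets, was at 12.3, 12.8, 24.1 and 13.1 CPM in low libraries 1 to 4 and 105 to 154 CPM in the high ones, median 126 (adjusted p = 3.29e-05, log2 fold change 3.04, SE 0.22). Map2k1 (ENSMUSG00000004936), which encodes the kinase MEK1, was at 142, 138, 139.6 and 121 CPM in low libraries 1 to 4 and 224 to 267 CPM in the high ones, median 239 (adjusted p = 0.000429, log2 fold change 0.83, SE 0.10). Both rises were without overlap of the groups. Pmaip1 (log2 fold change 1.68, adjusted p = 0.00375), a death-promoting BCL2 family gene, was the third stable rise and Pik3cb (log2 fold change -0.50, adjusted p = 0.011), a lipid kinase subunit, the stable fall. Among 26 Wnt feedback genes and targets, 2 rose and 2 fell (15.4%). Axin2 (log2 fold change 0.65, adjusted p = 0.0853), Lgr5 (log2 fold change -0.33, adjusted p = 0.328) and Myc (log2 fold change 0.56, adjusted p = 0.0834) did not pass, Myc with a call without low library 1 (adjusted p = 0.0383). High library 4 held the highest Axin2 and Myc values of its group. Ascl2 (log2 fold change 1.33, adjusted p = 0.00236), a stem cell factor, rose, and Prom1 (log2 fold change -1.62, adjusted p = 0.00872) and Cd44 (log2 fold change -1.05, adjusted p = 0.0137), surface glycoproteins used as stem cell markers, fell.

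Several Wnt receptors and BMP ligands had stable calls. Of 25 Wnt ligands, receptors and inhibitors, 7 fell and 1 rose (32%). Fzd5 (ENSMUSG00000045005), a Wnt receptor of intestinal epithelium, was at 164, 166, 156 and 122 CPM in low libraries 1 to 4 and 75.2 to 107 CPM in the high ones, median 84.1 (adjusted p = 0.00254, log2 fold change -0.78, SE 0.13). The receptor gene Fzd3 (log2 fold change -1.98, adjusted p = 0.00072) and the inhibitor gene Sfrp1 (log2 fold change -0.87, adjusted p = 0.00478) were further stable falls. Of 22 genes of BMP and TGF-beta signalling, 3 rose and 2 fell (22.7%), each stable. Bmp2 (ENSMUSG00000027358), a ligand of the upper crypt, was at 24.8, 21.8, 27.4 and 14.8 CPM in low libraries 1 to 4 and 40.0 to 81.8 CPM in the high ones, median 61.7 (adjusted p = 0.00244, log2 fold change 1.47, SE 0.23). Bmp3 (ENSMUSG00000029335), an antagonistic ligand, was at 63.3, 71.4, 51.4 and 45.9 CPM in low libraries 1 to 4 and 7.36 to 19 CPM in the high ones, median 16.5 (adjusted p = 0.000498, log2 fold change -1.93, SE 0.23). Id1 (ENSMUSG00000042745), a direct BMP target, was at 144, 129, 80.8 and 89.9 CPM in low libraries 1 to 4 and 198 to 336 CPM in the high ones, median 263 (adjusted p = 0.00251, log2 fold change 1.25, SE 0.20). Gdf15 (log2 fold change 2.15, adjusted p = 0.00022), a stress-induced ligand, rose. Of 30 genes of DNA replication and mitosis 5 rose (16.7%, against 15.5% of all genes). Without low libraries 3 and 4 the smallest adjusted p of those 5 was 0.0594. It belonged to Rfc3 (log2 fold change 0.75, adjusted p = 0.00921), which encodes a clamp loader subunit. Of 28 ribosomal protein genes 15 rose (53.6%), and 4 did without both libraries. The median log2 fold change of that list was 0.47 in all libraries and 0.42 without both. Rps19 (log2 fold change 0.77, adjusted p = 0.00445) was among the 3 stable rises. Among Wnt ligands, receptors and inhibitors, 1 rose and 6 fell without low libraries 3 and 4. Among genes of BMP and TGF-beta signalling, 4 rose and 2 fell without low libraries 3 and 4.

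Tuft cell and enteroendocrine genes fell more often than they rose, and hormones differed among themselves. Of 19 enteroendocrine genes, 9 fell and 1 rose (52.6%, against 15.5% of all genes), and 10 fell and 2 rose without low libraries 3 and 4. Nts (ENSMUSG00000019890), neurotensin, was at 21.1, 36.6, 4.39 and 21.3 CPM in low libraries 1 to 4 and 0.157 to 0.895 CPM in the high ones, median 0.354 (adjusted p = 0.000442, log2 fold change -5.63, SE 0.63). Gcg (ENSMUSG00000000394), which encodes glucagon-like peptides, was at 90.4, 102, 104 and 74.7 CPM in low libraries 1 to 4 and 18.8 to 49.1 CPM in the high ones, median 45.1 (adjusted p = 0.0063, log2 fold change -1.23, SE 0.23). Insl5 (ENSMUSG00000066090), a hormone of colonic L cells, was at 18.3, 22.2, 122 and 19.2 CPM in low libraries 1 to 4 and 76.2 to 156 CPM in the high ones, median 108, and passed without low library 3 (log2 fold change 2.48, adjusted p = 5.76e-05), but not in all libraries (adjusted p = 0.152, log2 fold change 1.28, SE 0.57). Gcg and Insl5, both known from L cells, thus had opposite signs. Pyy (log2 fold change 1.0, adjusted p = 0.0318), another L cell hormone, rose, but lost its call when any one of low libraries 1, 2 and 4 or high libraries 1, 4, 5 and 6 was left out (largest adjusted p = 0.0708). Of 14 tuft cell genes, 8 fell (57.1%), and 5 without low libraries 3 and 4. Trpm5 (ENSMUSG00000009246), their taste channel, was at 14.9, 13.3, 17 and 10.1 CPM in low libraries 1 to 4 and 6.02 to 9.1 CPM in the high ones, median 7.41 (adjusted p = 0.00651, log2 fold change -0.91, SE 0.17). The kinase gene Dclk1 (log2 fold change -1.29, adjusted p = 0.00771) was a stable fall as well.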

How the data were processed

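RNA sequencing of colorectum was analysed in 4 low and 6 high Neu5Gc libraries. The authors deposited expected counts and TPM per gene for each sample, per the file headers. The genome build was GRCm39, per the submitters' processing notes. The aligner, the counting tool and strand handling used were not given in the sources used here. Expected counts were rounded to whole numbers and tested with edgeR 4.0.16 (R 4.3.3): filterByExpr, TMM, robust quasi-likelihood fit, two-sided test between the groups, Benjamini-Hochberg adjustment over all genes tested, called at 0.05. The standard error is the size of the log2 fold change divided by the square root of F. TPM was used in limma 3.58.1 as an alternative, with DESeq2 1.42.0 as another. Tested on simulated data of 17783 genes with 200 changed, the main fit recovered 41% of 2-fold and 74% of 4-fold changes with 5 false calls. The simulation drew each gene independently and held no library with RNA of other organs, so it does not give the number of false calls in these libraries. Gene symbols were found for 35825 of 36118 gene IDs (99.2%), and 74 IDs share a symbol with another. Total estimated counts per library were 46093154 to 73913571, and intervals cover the spread between libraries, which may in part be technical, since the labels do not say whether a library is 1 mouse. Same-numbered libraries of both groups had correlations of deviations of -0.10, -0.07, -0.03 and -0.06, so no pairing was used. Genes are named by rule: Apc and Cmah, the 12 stable genes per direction with the smallest p and a mean of at least 5 CPM, the 10 per direction with the largest change in mean CPM, and up to 6 members of each described list by smallest p with any member a sentence turns on. Some genes that this rule names are not reported here. The members, gene lists and names were chosen with earlier results of these data known, and lists carry no test. Near-identical genes can share reads, and antisense reads cannot be told apart. Not analysed here were the liver libraries, outside 1 alternative fit of all 16.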

Additional observations from a re-analysis of the deposited data

Results flagged for a closer look

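Values of a named gene that stood apart from the rest of their group are listed here by library; chance alone flags about 1 in 20 groups. All values are CPM and no cause was tested. In high library 1 the values above the rest of the group were Slc15a1 at 145, Saa1 at 2881, Marveld3 at 115, Gjb5 at 15.9, Cyp2d12 at 137 and Plin2 at 172 CPM. In high library 2 the values above the rest of the group were Apc at 104 and Acacb at 19.3 CPM. In high library 3 the values above the rest of the group were Adamdec1 at 223, and below it Klf4 at 407 CPM. In high library 4 the values above the rest of the group were Mettl7a3 at 22.6, St3gal1 at 28.8, Axin2 at 112, Myc at 60.2, S100a8 at 21.9 and S100a9 at 27.2, and below it Casd1 at 101 CPM. In high library 5 the values above the rest of the group were Reg3a at 0.0297 CPM. In high library 6 the values above the rest of the group were Muc2 at 4973, Emp1 at 244, Isx at 21.9, Slc3a1 at 6.98, Alpi at 3.85 and Prom1 at 171 CPM. In low library 1 the values above the rest of the group were Rsad2 at 44.9 CPM. In low library 2 the values above the rest of the group were Siglecf at 3.76 and Spdef at 171 CPM. In low library 3 the values above the rest of the group were Cmah at 99.8, Trpv3 at 3.58, Tcf7l1 at 24.1, Tgm3 at 172, B3gnt7 at 326, St6galnac4 at 51.3, St8sia5 at 1.27, Hoxd13 at 2.56, Hoxb13 at 63.4, Atp12a at 22.4, Gjb5 at 1.15, Ly6g at 3.73, H2-DMb2 at 5.84, H2-Ob at 9.26, Ms4a1 at 18.2, Thbs4 at 203, Insl5 at 122 and Galnt3 at 124, and below it Hoxb8 at 3.68 CPM. In low library 4 the values above the rest of the group were Mep1a at 943, Slc3a1 at 226, Mogat2 at 14.6, Acaa1b at 116 and Me1 at 236, and below it Unc119 at 11.6, C1galt1c1 at 63.1 and Map2k1 at 121 CPM.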

How the results depend on the processing

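The comparison gave 2784 called genes, 1309 higher and 1475 lower, and the count depended on which libraries were used and on the test. Leaving out 1 library at a time gave 1592 to 3654 calls, 766 to 1765 higher and 826 to 1889 lower, with the most without low library 3 and the fewest without high library 5. The count moved by more than 1.5 times without low library 2 (1849), high library 1 (1689) and high library 5. limma on log2(TPM + 1) called 1718 genes (728 higher and 990 lower), limma on log2(TPM + 0.1) called 1711 (737 and 974), and limma without a TPM filter called 1477 (565 and 912), where 38.3% of the calls were higher against 47.0% in the main test. A test against a 1.5-fold change called 551 (229 and 322). With the replicate number as a block, over libraries 1 to 4 of each group, 482 genes were called (212 and 270), against 1045 (488 and 557) from the same 8 libraries without the block, an alternative added after the data were seen. Same-numbered libraries did not deviate together, so the numbers were not read as pairs. The DESeq2 Wald test called 3742 genes and a fit of all 16 libraries 3738. Among the 181 named genes no log2 fold change reversed under a setting where the gene was called in the main test or in that setting. Sign changes of genes called in neither were not counted. Leaving out 1 library kept the side of the threshold in 1755 of 1810 values, and leaving out low libraries 3 and 4 in 172 of 181. Many named genes were chosen among the stable genes, for which this agreement is fixed in advance. Of all 2784 called genes, 1147 were stable (41.2%), and 1222 lost their call without low libraries 3 and 4. With the replicate block over 8 libraries it was 111 of 181, with 70 calls lost, and under the other settings 1848 of 1979, with 120 lost. The 4 low libraries, 2 of them with RNA of other organs, limit the precision.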
